A study of Mus musculus with 11 samples.

Results

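The 33 genes described here encode the enzymes that build cholesterol and fatty acids, with the factors that control them. They were taken by symbol from a table of counts for 21846 mouse genes, and all 33 were found and passed the filter on low counts in each comparison. They fall into 18 enzymes of the sterol branch, 11 enzymes of the fatty acid branch and 4 genes of control and transport. RNA was sequenced from 11 cultures of the MamBo mammary carcinoma lines, which were established from tumors of virgin female FVB mice carrying a human HER2 transgene and were all grown in the same serum-supplemented medium. The 5 HER2-positive libraries came from MamBo89HER2stable (untreated parental cells, the untreated library named AG3, cells kept for 60 days in trastuzumab, and cells kept for 30 days in trastuzumab and then for 30 days without it) and from untreated MamBo43HER2labile. The 6 HER2-negative libraries came from MamBo38HER2loss (untreated in 2 libraries, with 1 library for each trastuzumab schedule) and from MamBo43HER2labile cells after each of both schedules, called MamBo43 TRT and placed among the HER2-negative samples by the study. The study still detected a small share of HER2-positive cells in MamBo43 cultures under trastuzumab, so these libraries may hold both kinds of cell. Trastuzumab, an antibody against HER2, was given at 30 µg/ml.

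MamBo89 stems from tumor A and the other lines from tumor B, and MamBo38 was derived from a tumor that MamBo43 cells formed in a mouse. MamBo43 TRT cells were seeded at high density. HER2 status was taken from the labels and the methods of the study, since the counts are for mouse genes and the transgene is human. AG3 was taken as the HER2-positive clone that the methods list, because the other MamBo89 libraries are accounted for. Total counts ranged from 17040454 to 27127662 per library, and 3 counts corresponded to between 0.112 and 0.179 CPM (counts brought to one library size with TMM factors). Of the 4 MamBo38 libraries, 3 share a code in their names, and the untreated replicate 2 carries another code, which all libraries of the other lines carry too. What the code stands for is not stated. Nothing in the labels says that libraries of 1 line came from separate cultures started independently, so p-values measure the spread between these libraries.

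Cells make cholesterol from acetyl-CoA through mevalonate, squalene and lanosterol, and make fatty acids by carboxylating acetyl-CoA to malonyl-CoA, which fatty acid synthase joins into palmitate for elongases and desaturases to modify. Both branches are switched on by the SREBP transcription factors. SREBP-1, from Srebf1, acts mainly on fatty acid genes, and SREBP-2, from Srebf2, acts mainly on sterol genes. When sterols are plentiful, INSIG-1 holds the SREBP precursors in the endoplasmic reticulum. In mammary epithelium, SREBP-1 and the desaturases are known for the synthesis of milk fat.

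SREBPs bind sterol regulatory elements in promoters together with the factors NF-Y, at CCAAT boxes, and Sp1, at GC boxes. The promoter windows of RefSeq on GRCm38.p6 around start sites held entries for 26 of the 33 genes (15 sterol, 8 fatty acid and 3 control genes). Sqle, Scd2, Fads1, Stard4, Fdps, Scd1 and Fdft1 had no entry. CCAAT on either strand was present in a window of 22 of the 26 genes (84.6%), including 14 of 15 sterol genes and 5 of 8 fatty acid genes. The same letters were present in 43.3% of the 9815 genes with an entry among those tested for HER2 status, and in 37.4% of all 32851 windows. GGGCGG on either strand was present in 21 of 26 genes (80.8%), against 70.2% of those 9815 genes. TCACNCCAC, the core of a sterol regulatory element, was present on either strand in 1 of 26 genes, Hmgcs1, and in 1.24% of all windows. These matches are descriptions of letters in the window and not of binding. Windows of 5 genes are shown, Dhcr7, Nsdhl and Srebf1 because they were called lower in HER2-negative libraries, Hmgcs1 for its match and Fasn as the core enzyme of its branch, each written on the strand of the gene. Capitals mark CCAAT or its complement ATTGG in each window, and also TCACCCCAC in Hmgcs1, at position -137 from the start. In Fasn, 2 of the 3 matches overlap. The windows of Dhcr7 that are not shown held 0 matches to CCAAT on either strand, and those of Srebf1 held 0 and 1. The windows lie at chr13:119690101-119690400 on the plus strand (Hmgcs1), chr7:143829964-143830263 on the plus strand (Dhcr7, 1 of 3 listed windows), chrX:72918271-72918570 on the plus strand (Nsdhl), chr11:60210422-60210721 on the minus strand (Srebf1, 1 of 3 listed windows) and chr11:120824498-120824797 on the minus strand (Fasn).
Hmgcs1: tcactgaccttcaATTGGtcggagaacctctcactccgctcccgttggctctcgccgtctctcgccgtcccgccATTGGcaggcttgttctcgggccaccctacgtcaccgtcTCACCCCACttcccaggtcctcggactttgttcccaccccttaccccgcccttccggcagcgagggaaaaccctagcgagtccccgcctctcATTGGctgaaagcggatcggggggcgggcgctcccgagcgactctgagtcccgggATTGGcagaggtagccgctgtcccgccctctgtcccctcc
Dhcr7: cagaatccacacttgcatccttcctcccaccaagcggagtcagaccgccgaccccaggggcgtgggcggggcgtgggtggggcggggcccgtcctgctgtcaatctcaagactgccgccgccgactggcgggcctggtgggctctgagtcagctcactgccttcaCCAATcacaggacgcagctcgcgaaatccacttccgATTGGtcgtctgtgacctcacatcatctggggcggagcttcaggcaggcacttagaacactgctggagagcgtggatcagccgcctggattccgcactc
Nsdhl: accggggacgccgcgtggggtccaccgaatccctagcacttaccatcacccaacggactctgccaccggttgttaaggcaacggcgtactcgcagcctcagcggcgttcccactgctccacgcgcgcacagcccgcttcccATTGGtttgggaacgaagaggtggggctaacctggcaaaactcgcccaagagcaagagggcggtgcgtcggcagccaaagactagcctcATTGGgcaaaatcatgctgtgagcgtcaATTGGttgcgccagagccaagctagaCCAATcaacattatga
Srebf1: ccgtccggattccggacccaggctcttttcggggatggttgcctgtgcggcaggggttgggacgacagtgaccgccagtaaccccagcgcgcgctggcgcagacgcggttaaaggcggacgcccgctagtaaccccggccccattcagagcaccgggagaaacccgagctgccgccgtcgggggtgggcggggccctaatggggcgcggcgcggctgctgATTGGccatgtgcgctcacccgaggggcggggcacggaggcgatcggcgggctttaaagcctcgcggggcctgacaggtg
Fasn: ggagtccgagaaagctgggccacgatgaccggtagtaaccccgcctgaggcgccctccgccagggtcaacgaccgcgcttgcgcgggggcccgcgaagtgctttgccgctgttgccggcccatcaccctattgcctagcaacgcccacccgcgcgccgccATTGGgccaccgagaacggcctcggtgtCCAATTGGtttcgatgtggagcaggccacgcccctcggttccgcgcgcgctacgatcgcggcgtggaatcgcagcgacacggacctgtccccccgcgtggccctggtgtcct

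The levels of the 33 genes in each library are shown relative to the mean of each gene. Divided by exon length, the most abundant transcript in parental MamBo89 was Scd1, at 1562 to 1762 CPM per kilobase in the 3 parental libraries. Srebf1 followed at 157 to 212 and Scd2 at 139 to 215 CPM per kilobase. In MamBo38 the order was Scd1, at 107 to 125, then Scd2, at 73.4 to 115, whose ranges overlapped, and then Acly, at 48.3 to 56.2. The lowest levels in MamBo38 were those of Acss2, at 0.381 to 0.477, and Tm7sf2, at 0.304 to 0.812 CPM per kilobase. Summed over the 18 sterol genes, CPM ranged from 599 to 673 in the HER2-negative libraries and from 579.9 to 971 in the HER2-positive ones, so that the groups overlapped. Summed over the fatty acid genes without Scd1, CPM ranged from 1013 to 1674 in the HER2-negative libraries and from 1744 to 3137 in the HER2-positive ones, without overlap.

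**Figure D1:**
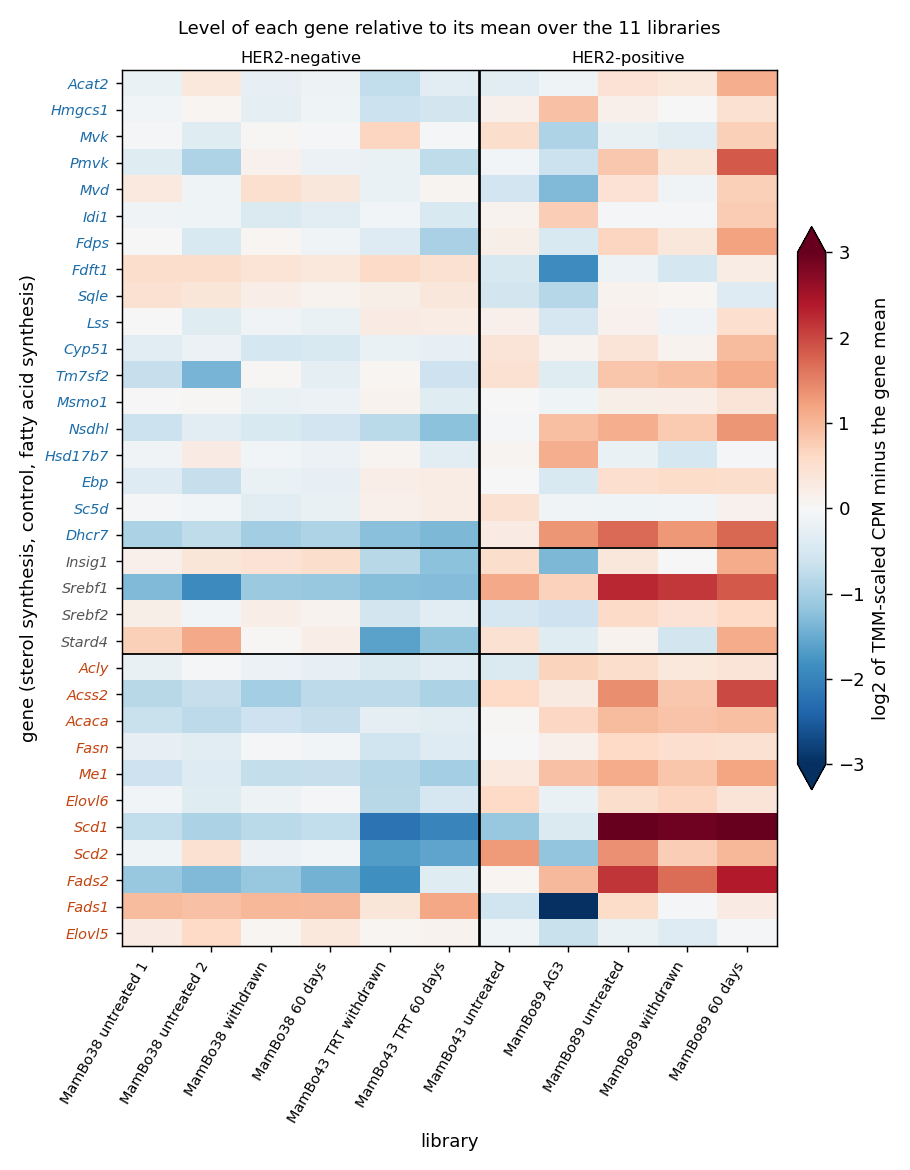
Level of each of the 33 genes (rows, by branch) in each of the 11 libraries (columns), as log2 CPM minus the mean of the gene over the libraries, with HER2-negative libraries to the left of the vertical line. Srebf1, Dhcr7, Scd1 and Fads2 are low on the left and high in parental MamBo89, and Scd1 and Fads1 are low in AG3.

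The first comparison asked how the genes differ between cells without and with HER2. Srebf1, Dhcr7 and several fatty acid genes were lower in HER2-negative libraries, while most sterol enzymes differed by less than 2-fold. Of the 33 genes, 11 were called lower (33.3%) and 0 higher by edgeR's quasi-likelihood test, with calls made at an adjusted p under 0.1 and a change of at least 2-fold (log2 fold change of 1) in either direction. Of all 12364 genes tested, 17% were called lower and 15.8% higher. The calls took in 6 of 11 fatty acid genes, 4 of 18 sterol genes and 1 of 4 control genes. The median log2 fold change was -1.20 over the fatty acid genes, -0.49 over the sterol genes and -0.04 over all genes tested. An unadjusted p under 0.05 was found for 21 of the 33 genes (63.6%), beside 58.4% of all genes tested. When the model also held the tumor of origin, 4 of the 33 genes (12.1%) were called lower, beside 13.1% of all genes, so that the share of members was then not above that of all genes.

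Srebf1 (ENSMUSG00000020538, chr11:60199089-60222581, minus strand) encodes the precursor of SREBP-1. Its level was 66.1 to 114 CPM over the 6 HER2-negative libraries (median 102). It was 550.0 CPM in untreated MamBo43, 403 in AG3, and 1195, 1081 and 887 in untreated, withdrawn and 60-day parental MamBo89. All HER2-negative libraries lay below all HER2-positive ones, the lowest of which was AG3. The log2 fold change was -3.05 ± 0.28 (SE, 6 against 5 libraries, edgeR adjusted p = 1.32e-05). Srebf2, the precursor of SREBP-2, measured 277 ± 54.7 CPM (SD, n = 6) in HER2-negative and 329 ± 123 (SD, n = 5) in HER2-positive libraries, and its log2 fold change of -0.25 ± 0.25 (SE) did not pass (edgeR adjusted p = 0.428). Insig1 (-0.28 ± 0.42) and Stard4, a sterol carrier (-0.10 ± 0.49), did not pass either, and both ranged widely inside each group. In RNA of whole cultures, fewer cells with a transcript and less of it per cell cannot be told apart.

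In the sterol branch the largest difference was in Dhcr7 (ENSMUSG00000058454, chr7:143823145-143848410, plus strand), the reductase that ends one route to cholesterol. It measured 10.3 to 15.3 CPM over the 6 HER2-negative libraries (median 13.1). It measured 30.9 CPM in untreated MamBo43, 64.9 in AG3, and 85.2, 64.3 and 86.3 in untreated, withdrawn and 60-day parental MamBo89. The groups did not overlap, and untreated MamBo43 was nearest to the HER2-negative libraries. The log2 fold change was -2.38 ± 0.24 (SE, edgeR adjusted p = 2.15e-05). Nsdhl, which removes a methyl group from sterols at carbon 4, measured 10.1 to 18.6 CPM in HER2-negative libraries, 22.8 in untreated MamBo43 and 40.5 to 59.5 in MamBo89 (log2 fold change -1.53 ± 0.24, SE). Pmvk, phosphomevalonate kinase (-1.05 ± 0.40), and Tm7sf2, a sterol reductase (-1.07 ± 0.33), were called with overlapping groups. Their edgeR adjusted p was 0.0461 for Pmvk and 0.0192 for Tm7sf2. The Pmvk call was lost without MamBo38 untreated replicate 2, 60-day MamBo43 TRT or 60-day MamBo89, and the Tm7sf2 call without the same MamBo38 library or either treated MamBo89 library.

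Most of the sterol pathway stayed within 2-fold. Among the early steps, Hmgcs1, the synthase of HMG-CoA (-0.61 ± 0.19, SE), Idi1, an isomerase (-0.61 ± 0.20), and Fdps, the synthase of farnesyl diphosphate (-0.76 ± 0.27), had an adjusted p between 0.0186 and 0.0369 without reaching the fold minimum. Cyp51, the demethylase of lanosterol, did the same at -0.74 ± 0.16 (edgeR adjusted p = 0.00256), with 32.1 to 41.1 CPM in HER2-negative and 49.9 to 90.5 CPM in HER2-positive libraries. Both steps that follow farnesyl diphosphate on the way to sterols differed in the other direction. Fdft1, squalene synthase, measured 88.3 to 107 CPM in HER2-negative libraries against 19.2 to 83.4 CPM in HER2-positive ones (log2 fold change 0.89 ± 0.28, SE, edgeR adjusted p = 0.0198). Sqle, squalene epoxidase, measured 145 to 184 against 74.3 to 144 CPM (0.56 ± 0.17, edgeR adjusted p = 0.0179). Neither Fdft1 nor Sqle reached the fold minimum, and in both the groups did not overlap. The other 8 sterol genes (Acat2, Mvk, Mvd, Lss, Msmo1, Hsd17b7, Ebp and Sc5d) had log2 fold changes between -0.56 and 0.17 and an adjusted p of 0.101 or more. Between 20% and 33.9% of the 75-base windows of Acat2, Idi1, Fdps, Fdft1, Acaca and Me1 also occur in transcripts of other genes, so reads may be shared there.

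In the fatty acid branch the largest differences were in desaturases. Scd1 (ENSMUSG00000037071, chr19:44394455-44407879, minus strand) makes oleate and palmitoleate. It measured 8621, 7642 and 8043 CPM in untreated, withdrawn and 60-day parental MamBo89, 749 in AG3 and 458 in untreated MamBo43. In the 6 HER2-negative libraries it ranged from 216 to 611 CPM (median 552). Only parental MamBo89 stood high, and untreated MamBo43 lay among the HER2-negative libraries. The log2 fold change was -3.45 ± 0.74 (SE, edgeR adjusted p = 0.00241), and with tumor of origin as a covariate it was 0.026. Fads2, the desaturase that opens the route to long polyunsaturated fatty acids, measured 10.8 to 30.4 CPM in HER2-negative libraries, 40.3 in untreated MamBo43, 76.4 in AG3 and 125 to 203 in parental MamBo89 (-2.79 ± 0.40, SE, edgeR adjusted p = 0.00019). Scd2 was called at -1.20 ± 0.47 (edgeR adjusted p = 0.0527) with overlapping groups, and the call was lost without untreated parental MamBo89.

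The other 3 fatty acid genes called lower were Acss2, Me1 and Acaca. Acss2, which makes acetyl-CoA from acetate, measured 3.87 to 4.85 CPM in the 6 HER2-negative libraries. It measured 11.9 CPM in untreated MamBo43, 9.35 in AG3, and 20.5, 13.6 and 30.6 in untreated, withdrawn and 60-day parental MamBo89 (-1.97 ± 0.29, SE, edgeR adjusted p = 0.000219). Me1, the malic enzyme that yields NADPH, measured 55.4 to 85.8 CPM in HER2-negative and 135 to 252 CPM in HER2-positive libraries (-1.59 ± 0.17, edgeR adjusted p = 2.67e-05). Acaca, acetyl-CoA carboxylase, measured 109 to 156 against 192 to 364 CPM (-1.26 ± 0.17, edgeR adjusted p = 0.000144). The HER2-negative and HER2-positive libraries did not overlap for any of Acss2, Me1 and Acaca. Acly, ATP citrate lyase (-0.58 ± 0.17), Fasn, fatty acid synthase (-0.63 ± 0.14), and Elovl6, an elongase of saturated chains (-0.73 ± 0.18), had an adjusted p between 0.00374 and 0.0159 and less than 2-fold differences. Elovl5, an elongase of polyunsaturated chains, lay at 101 to 147 CPM in HER2-negative and 60.7 to 93.7 CPM in HER2-positive libraries (0.51 ± 0.14, edgeR adjusted p = 0.0106). Fads1, the desaturase that follows Elovl5 and Fads2, did not pass (1.13 ± 0.64, adjusted p = 0.161), and it measured 1.07 CPM in AG3 and 31.2 to 106 CPM elsewhere.

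**Figure D2:**
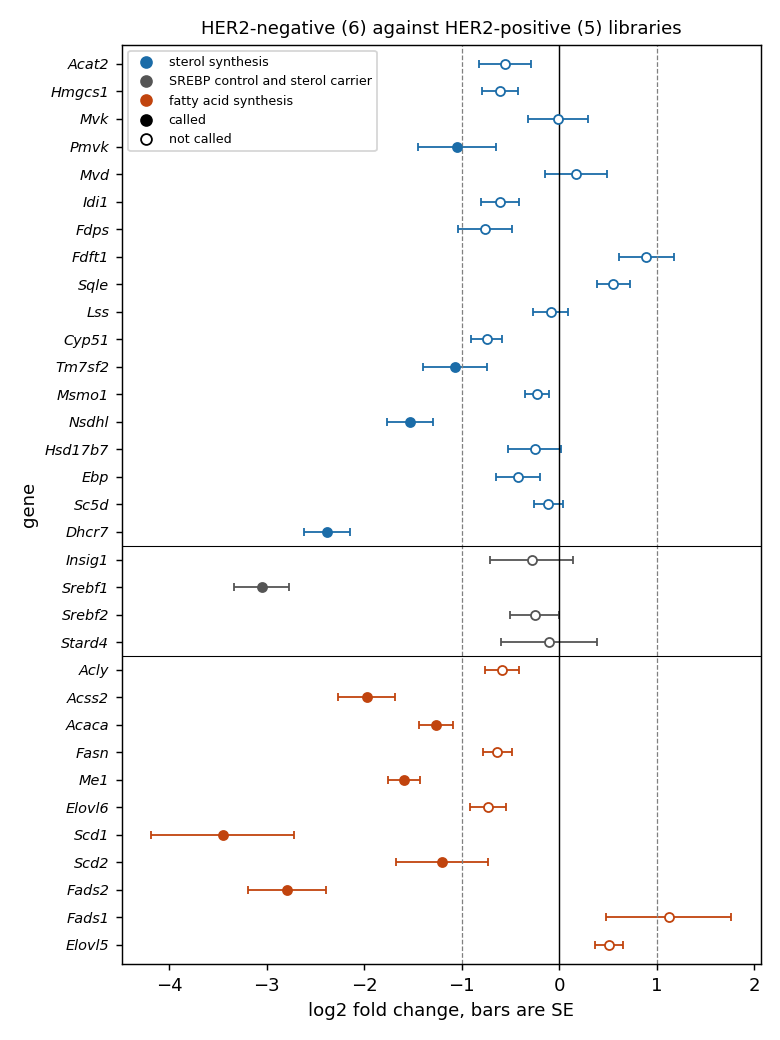
Log2 fold change (points) and its SE (bars) of each gene between 6 HER2-negative and 5 HER2-positive libraries, colored by branch, with filled points for genes called at an adjusted p under 0.1 and at least 2-fold (dashed lines). The 11 called genes are all lower in HER2-negative libraries, and Scd1, at -3.45, has the widest error.

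Over all members, 10 of the 33 genes had every HER2-negative library below every HER2-positive one and 3 had the reverse, beside 17.4% and 17.5% of all genes tested. HER2 status also runs with tumor of origin and with markers of cell state. The 8 mesenchymal markers (Vim, Fn1, collagens and others) summed to 23747 to 48674 CPM in HER2-negative libraries and 266 to 2354 in HER2-positive ones. Fn1 was most of the sum in each HER2-negative library. In HER2-positive libraries Fn1 was 113 of 266 CPM in 60-day MamBo89, 561 of 1176 in untreated MamBo43, and most of the sum in the others. The 10 epithelial markers summed to 1.40 to 1854 CPM against 2556 to 3935. Epcam was at 0.279 CPM or less in MamBo38 but at 159 and 30.6 in withdrawn and 60-day MamBo43 TRT. Epcam, Cdh1, Cldn3 and Cldn4 were below every HER2-positive library in MamBo43 TRT. In its withdrawn library, Krt8, Krt18 and Cldn7 lay within the HER2-positive range, at 470.2, 914 and 42.8 CPM. In the 60-day library Krt14 was at 111 CPM and Krt5 at 3.82, against at most 34.4 and 0.0551 in HER2-positive libraries. The defining adipocyte markers Adipoq, Plin1, Cfd, Lep and Cidec were at 0.179 CPM or less in all 11 libraries, and only Lipe, at 2.22 to 20.8, was above that. Of the leukocyte markers, Ptprc, Csf1r, Cd3e and Tyrobp were at or near 0. Cd79a measured 0.936 CPM or less, and Cd68 1.02 to 49.9 CPM. Of the endothelial markers, Cdh5 and Emcn were at or near 0, while Tek reached 0.238 CPM, Pecam1 0.725 CPM and Egfl7 2.53 CPM. The part of the epithelial and mesenchymal difference in the result was not tested. In the fit with tumor of origin added, the calls of Pmvk, Tm7sf2, Nsdhl, Acaca, Me1, Scd1 and Scd2 were lost, and the 4 genes called were Dhcr7, Srebf1, Acss2 and Fads2. That fit rests on untreated MamBo43 as the one HER2-positive library of tumor B.

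HER2 was lost in 2 settings from MamBo43, in culture under trastuzumab (MamBo43 TRT) and in a mouse (MamBo38). Both were set against the same single library of untreated MamBo43, in a fit of all 11 libraries in 4 groups in which the lone library is assumed to vary like the others. In MamBo43 TRT 8 of the 33 genes were called lower (24.2%) and 0 higher, beside 15.5% lower and 13.6% higher among 13782 genes tested. In MamBo38 4 were called lower (12.1%) and 0 higher, beside 18.5% and 17.4%. The share in MamBo38 was thus not above that of all genes. Dhcr7, Srebf1 and Acss2 were called in both.

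Srebf1 measured 550.0 CPM before and 102 and 101 CPM in withdrawn and 60-day MamBo43 TRT, a log2 fold change of -2.43 ± 0.50 (SE, n = 2 against 1, edgeR adjusted p = 0.00514). In the 4 MamBo38 libraries it measured 98.9, 66.1, 114 and 113 CPM (-2.48 ± 0.41, edgeR adjusted p = 0.000818). The libraries of MamBo43 TRT and MamBo38 thus overlapped, and the difference between them was 0.05 ± 0.36. Dhcr7 was 30.9 CPM in untreated MamBo43, 10.9 and 10.3 CPM in MamBo43 TRT (-1.54 ± 0.22) and 12.6 to 15.3 CPM in MamBo38 (-1.16 ± 0.20). Acss2 was 11.9 CPM before, 4.56 and 4.01 CPM in MamBo43 TRT (-1.46 ± 0.53, edgeR adjusted p = 0.0586) and 3.87 to 4.85 CPM in MamBo38 (-1.42 ± 0.46, edgeR adjusted p = 0.0296). Fads2, at 40.3 CPM before, was called in MamBo38, where it measured 14.6 to 17.7 CPM (-1.29 ± 0.49, edgeR adjusted p = 0.0546). In MamBo43 TRT it measured 10.8 CPM after withdrawal and 30.4 CPM at 60 days, and was not called (-0.96 ± 0.56).

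Scd2, a stearoyl-CoA desaturase like Scd1 (ENSMUSG00000025203, chr19:44293674-44306864, plus strand), had the largest change in MamBo43 TRT. It measured 1113 CPM in untreated MamBo43 and 142 and 152 CPM after HER2 loss under trastuzumab. MamBo38 lay between, at 417 and 627 CPM untreated, 401 withdrawn and 432 at 60 days. The log2 fold change was -2.91 ± 0.68 (SE, edgeR adjusted p = 0.01) in MamBo43 TRT and -1.24 ± 0.60 (adjusted p = 0.119) in MamBo38. The difference between MamBo43 TRT and MamBo38, tested in the same fit, was -1.67 ± 0.54 (edgeR adjusted p = 0.0408). Insig1 measured 56.3 CPM before, 22.1 and 16.7 in MamBo43 TRT and 43.4 to 57.0 in MamBo38, with a difference between both HER2-negative states of -1.40 ± 0.51 (edgeR adjusted p = 0.062). Stard4 measured 11.3 CPM before, 2.70 and 3.55 in MamBo43 TRT and 8.46 to 18.2 in MamBo38, with a difference of -1.98 ± 0.52 (edgeR adjusted p = 0.0168). These 3 genes were the only ones of the 33 called between MamBo43 TRT and MamBo38, all lower in MamBo43 TRT (9.09%), beside 10.2% of all genes in each direction, so that the share was not above that of all genes. The 3 calls became 0 without withdrawn MamBo43 TRT and 1 without the 60-day library. Against untreated MamBo43, the calls of Insig1, Stard4 and Acss2 were lost when either MamBo43 TRT library was left out. That leaves 1 library in the MamBo43 TRT group.

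Elovl6 (-1.25 ± 0.29, SE) and Me1 (-1.21 ± 0.20) were the other genes called in MamBo43 TRT. Elovl6 measured 75.4 CPM before, 28.0 and 35.2 CPM in MamBo43 TRT and 38.8 to 47.4 CPM in MamBo38 (-0.76 ± 0.26, edgeR adjusted p = 0.0399, under 2-fold). Me1 measured 135 CPM before, 61.6 and 55.4 in MamBo43 TRT and 67.8 to 85.8 in MamBo38 (-0.88 ± 0.18, edgeR adjusted p = 0.00276, under 2-fold). The core enzymes of palmitate synthesis moved less. Fasn gave -0.47 ± 0.21 in MamBo43 TRT and -0.16 ± 0.20 in MamBo38, and Acly gave 0.05 ± 0.19 and 0.26 ± 0.18, none of which passed. Acaca gave -0.33 ± 0.17 in MamBo43 TRT, which did not pass, and -0.72 ± 0.15 in MamBo38 (edgeR adjusted p = 0.00345, under 2-fold). In MamBo43 TRT the other 17 sterol genes gave between -0.95 (Nsdhl) and 1.02 (Fdft1), and in MamBo38 between -0.93 (Tm7sf2) and 0.95 (Fdft1), with no call. Fdft1 measured 50.8 CPM before and 88.3 to 107 CPM in the 6 HER2-negative libraries. Markers moved here too, with a mesenchymal sum of 1176 CPM in untreated MamBo43 and an epithelial sum of 3631 CPM. Their part was not tested.

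**Figure D3:**
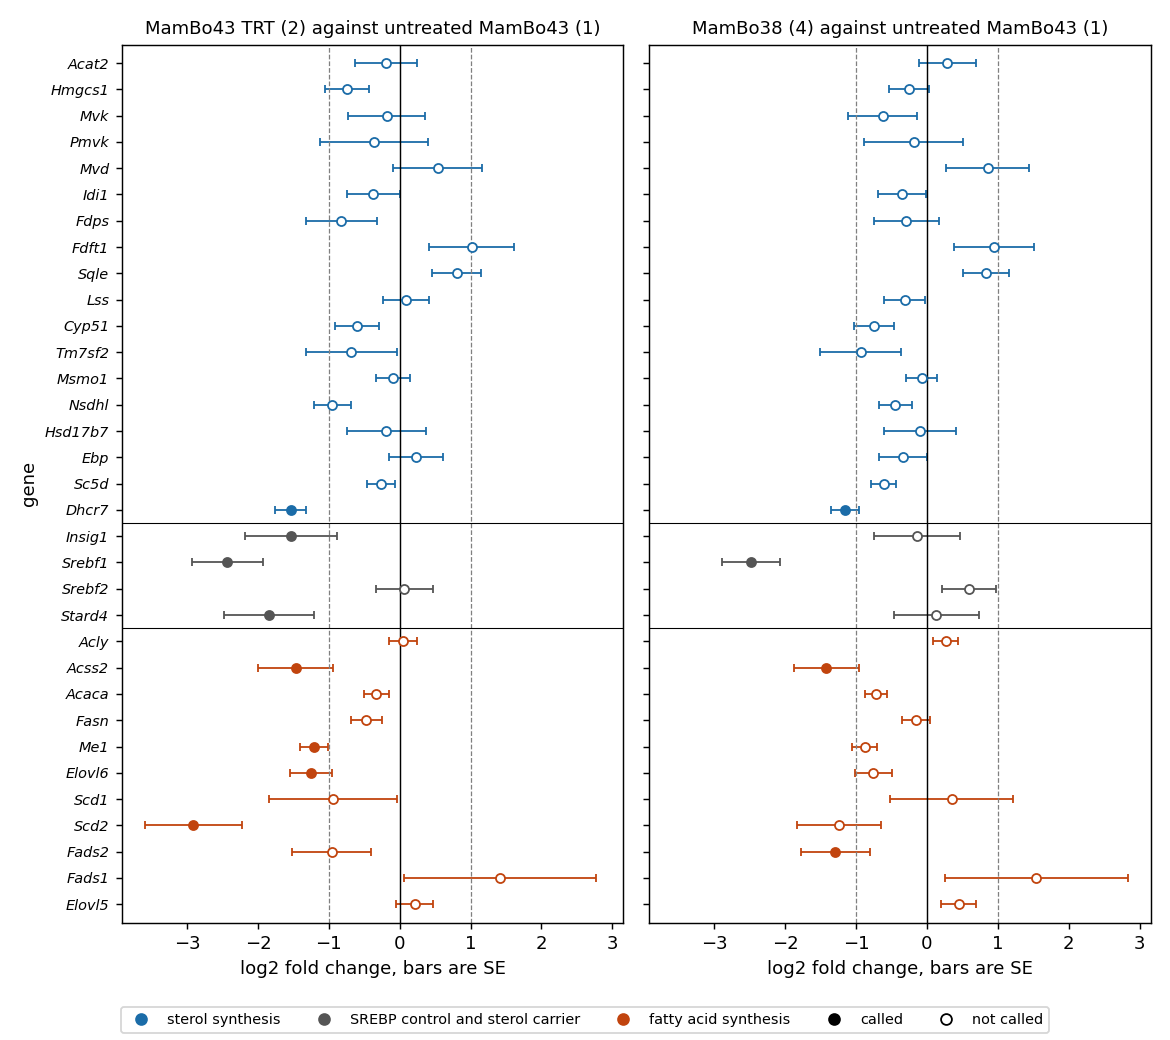
Log2 fold change (points) and SE (bars) of each gene in MamBo43 TRT (left, 2 libraries) and MamBo38 (right, 4 libraries) against the same untreated MamBo43 library, with filled points for called genes. Srebf1 lies at -2.43 and -2.48, while Insig1, Stard4 and Scd2 lie further left in MamBo43 TRT.

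**Figure D4:**
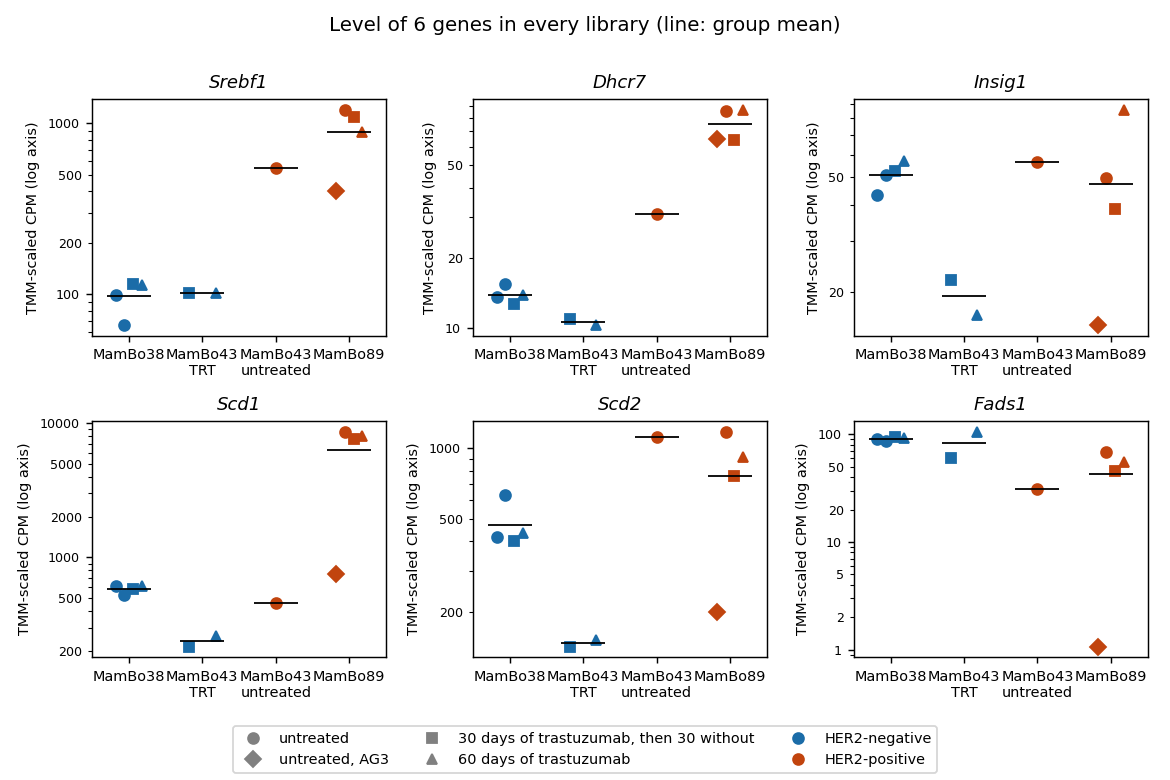
CPM on a log axis of 6 genes in each library by line, blue for HER2-negative and orange for HER2-positive, with symbols for treatment and a line at the group mean. Srebf1 and Dhcr7 separate by HER2 status, Scd2 and Insig1 are lowest in MamBo43 TRT and AG3, and Fads1 is at 1.07 CPM in AG3.

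Untreated MamBo43 was compared with untreated MamBo89 (1 library against parental MamBo89 and AG3), which differ in whether HER2 is kept. None of the 33 genes was called by edgeR, beside 7.4% of 12867 genes tested, and DESeq2 also called 0. An unadjusted p under 0.05 was found for 3 of the 33 (9.09%), beside 14.8% of all genes, so that these 3 values are given as a description. They were Scd1 (458 CPM against 749 in AG3 and 8621 in parental cells, log2 fold change -3.33 ± 1.21, SE), Fads2 (40.3 against 76.4 and 172 CPM, -1.60 ± 0.55) and Dhcr7 (30.9 against 64.9 and 85.2 CPM, -1.26 ± 0.49). In the fit of all libraries in 4 groups, which takes in the treated MamBo89 libraries, these 3 genes and Nsdhl were called lower in MamBo43. In that fit 7.86% of 13782 genes tested were called lower and 11% higher.

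The effect of the antibody where HER2 is kept was asked in MamBo89. Trastuzumab-treated libraries (n = 2) and untreated ones (n = 2) gave 0 calls among the 33 genes, beside 0% of 12046 genes, and 0 of the 33 had an unadjusted p under 0.05, beside 1.54% of all genes. DESeq2 called 0 of the 33 as well. The untreated libraries differed widely from each other, since AG3 was low for many of these genes. Scd1 was 749 CPM in AG3 and 8621 in untreated parental cells, Scd2 200.3 and 1172, Fads1 1.07 and 68.3, Insig1 15.4 and 49.8, Srebf1 403 and 1195, and Fdft1 19.2 and 64.0. Some sterol genes were higher in AG3, with Hsd17b7 at 27.9 against 11.4 CPM, Hmgcs1 at 59.3 against 35.8 and Idi1 at 28.6 against 16.6. Of the 33 genes, 18 were at least 1.5-fold lower and 3 at least 1.5-fold higher in AG3 than in untreated parental cells, beside 19.6% and 18.4% of 10263 genes above 5 CPM in either library.

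When untreated parental MamBo89 was left out, the comparison was of the 2 treated parental libraries with AG3 alone. Then 14 of the 33 genes were called higher in the treated libraries and 1 lower, Hsd17b7, beside 8.94% and 9.45% of 12485 genes. The largest were Fads1 (5.52 ± 0.39, SE), Scd1 (3.36 ± 0.29), Scd2 (2.03 ± 0.29) and Insig1 (1.98 ± 0.34). Among sterol genes Pmvk, Fdft1, Mvd, Tm7sf2, Fdps and Mvk were called, at 1.17 to 1.91. Since the libraries differ both in trastuzumab and in being AG3, these cannot be told apart here, and AG3 is 1 library. Without AG3, 0 of the 33 genes were called.

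Among the 3 parental MamBo89 libraries, with 1 for each state and no test, the 60-day library was high for sterol genes. This pattern and the fold of 1.5 were chosen after the values were seen. At 60 days 6 of the 33 genes were at least 1.5-fold above the untreated parental library (18.2%), beside 3.32% of 10017 genes above 5 CPM in either library. The 6 were Pmvk (36.6 against 17.9 CPM), Stard4 (17.7 against 8.85), Mvk (12.2 against 6.40), Idi1 (29.3 against 16.6), Insig1 (85.6 against 49.8) and Acat2 (34.0 against 21.7). Just under the fold lay Acss2 at 1.497, Fdps at 1.49 and Cyp51 at 1.48. Of the 18 sterol genes 17 were above their untreated level, the exception being Sqle at 0.72-fold, against 4 of 11 fatty acid genes and 47.9% of the 10017 genes. No gene of the 33 was at least 1.5-fold below, beside 4.65% of all genes. After 30 days of trastuzumab and 30 days without it, 0 of the 33 genes were at least 1.5-fold above untreated parental cells, beside 1.03% of 9935 genes, and 4 (12.1%) were at least 1.5-fold below, beside 1.78%. The 4 were Stard4 (5.60 against 8.85 CPM), Scd2 (760.2 against 1172), Fads1 (45.2 against 68.3) and Acss2 (13.6 against 20.5). Only 6 of the 33 genes, 5 of them sterol genes, were above their untreated level, beside 47.8% of all genes. Srebf1, at 1195 CPM untreated, was 1081 CPM after withdrawal and 887 CPM at 60 days.

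**Figure D5:**
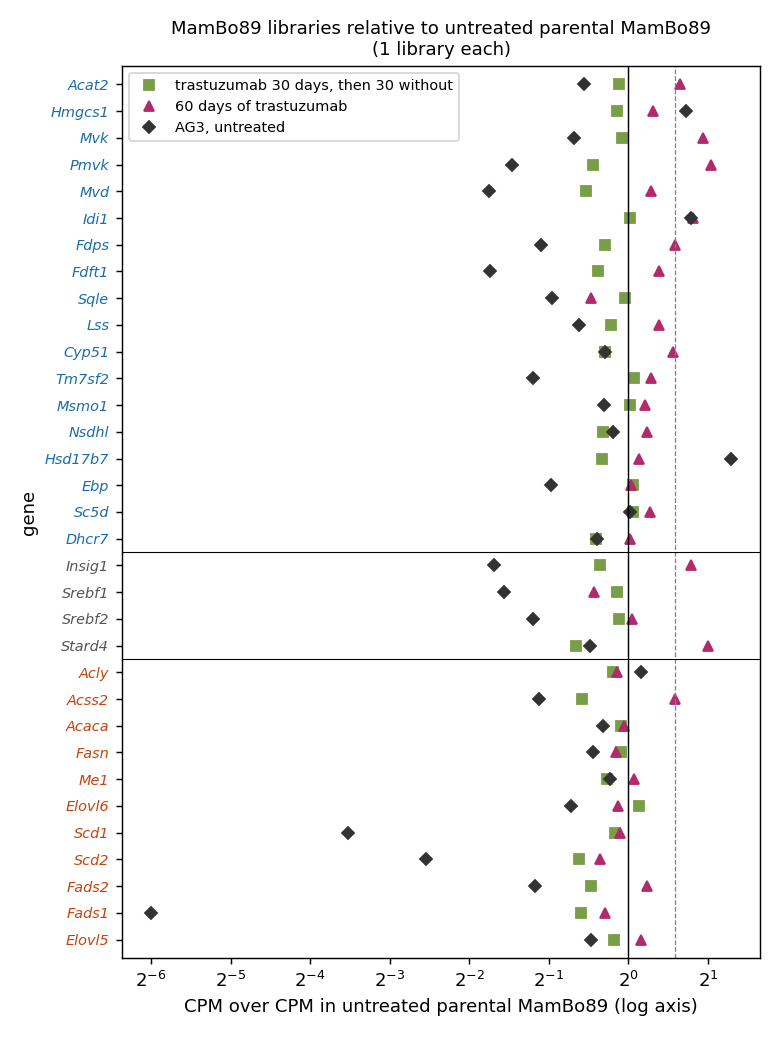
CPM of each gene in 3 MamBo89 libraries divided by its CPM in untreated parental MamBo89, on a log axis, with 1 library for each symbol and a dashed line at 1.5-fold. At 60 days of trastuzumab 17 of the 18 sterol genes lie to the right of 1, after withdrawal 5 of the 18 do, and AG3 lies far to the left for Fads1, Scd1 and Scd2.

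In MamBo38, which lacks HER2, trastuzumab-treated (n = 2) and untreated (n = 2) libraries gave 0 calls among the 33 genes, beside 0% of 11861 genes, by edgeR and by DESeq2. Stard4 was the 1 gene of the 33 with an unadjusted p under 0.05 (3.03%, beside 4.24% of all genes), at 8.46 and 9.40 CPM treated and 13.5 and 18.2 CPM untreated (log2 fold change -0.82 ± 0.21, SE, edgeR adjusted p = 0.663). Both treated libraries share their code with untreated replicate 1, and against that library alone 0 of the 33 genes were called. Untreated replicate 2, with the other code, was lower for Srebf1 (66.1 CPM, against 98.9 to 114 in the other MamBo38 libraries) and higher for Scd2 (627 CPM, against 401 to 432). The difference between the antibody effects in MamBo89 and MamBo38, tested as an interaction over 8 libraries, gave 0 calls among the 33 genes, beside 0% of 12983 genes, and 0 of the 33 had an unadjusted p under 0.05, beside 1.68% of all genes. An effect of the antibody on these genes was not detectable with 2 libraries a group. Each treated group joins both schedules. The untreated groups join AG3 with parental cells in MamBo89 and both library codes in MamBo38. Differences between the joined libraries count as spread in these tests.

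Other genes of lipid metabolism did not follow 1 direction. The counts in these lists stand beside 15.8% higher and 17% lower among all genes tested, and no list was tested as a whole. Among 13 further genes of SREBP control, 1 was called between HER2-negative and HER2-positive libraries, Thrsp, which promotes lipogenesis (0.220 ± 0.339 CPM, SD, n = 6, against 8.40 ± 6.21, n = 5). Scap, which escorts SREBPs, and the proteases that release them were not among the calls. Of 17 tested genes of sterol uptake, transport, storage and efflux, 6 were higher and 4 lower. Soat1, which esterifies cholesterol for storage, was higher (184 ± 28.2 against 5.02 ± 2.34 CPM, log2 fold change 5.19 ± 0.32, SE, edgeR adjusted p = 1.24e-06). Abcg1, a sterol exporter, was lower (-2.62 ± 0.57, edgeR adjusted p = 0.00271). Of 9 genes of the prenyl and dolichol branches 1 was higher and 0 lower, and of 15 tested genes of fatty acid oxidation 0 were higher and 1 lower, Cpt1a, which carries fatty acids into mitochondria (-1.16 ± 0.30, edgeR adjusted p = 0.00795). Of 10 tested desaturases and elongation enzymes outside the 11 fatty acid genes, 1 was higher and 3 lower. Of 8 tested genes of citrate export and NADPH supply, 3 were higher and 0 lower, among them Pgd (151 ± 57.1 against 63.9 ± 9.72 CPM) and Me2, the mitochondrial relative of Me1 (28.7 ± 10.6 against 5.07 ± 2.28 CPM). Of 16 tested genes of fatty acid uptake, activation and triglyceride synthesis, 2 were higher and 6 lower, among them Acsl3, which activates fatty acids (46.0 ± 6.87 against 215 ± 56.0 CPM, log2 fold change -2.22 ± 0.18, edgeR adjusted p = 5.78e-06).

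The same lists were mixed within tumor B, where 13.6% of all genes were called higher and 15.5% lower in MamBo43 TRT, and 17.4% and 18.5% in MamBo38. In MamBo43 TRT against untreated MamBo43, 7 of 17 genes of sterol uptake, transport, storage and efflux were called higher (41.2%) and 6 lower (35.3%), and in MamBo38 7 were higher (41.2%) and 3 lower (17.6%). Abca1, a cholesterol exporter, measured 167 CPM in untreated MamBo43 and 30.9 ± 1.505 (SD, n = 2) in MamBo43 TRT (-2.43 ± 0.26, SE, edgeR adjusted p = 0.000196). Nr1h3, the nuclear receptor LXR alpha that activates Srebf1, measured 7.34 CPM in untreated MamBo43 and was called lower in MamBo43 TRT (log2 fold change -2.28 ± 0.46, SE, edgeR adjusted p = 0.00471) and in MamBo38 (-3.04 ± 0.38, edgeR adjusted p = 0.00013). Between all HER2-negative and HER2-positive libraries Nr1h3 was not called. Its part in the Srebf1 difference was not tested. Of fatty acid oxidation, 1 of 16 genes was called higher in each state (6.25%), with 3 lower in MamBo43 TRT (18.8%) and 5 lower in MamBo38 (31.2%). Cpt1a was lower in both, at -1.91 ± 0.40 and -2.14 ± 0.34.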

How the data were processed

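RNA from 11 cultures was read over 75 nucleotides in single-end mode from TruSeq v2 libraries, which keep no strand. Per the labels and methods, the authors aligned with STAR 2.5, estimated counts with RSEM 1.3.0 on mm10 and deposited expected counts. These were rounded to whole numbers before use here. The annotation release is not given in the sources used here. The 33 members and the gene lists were chosen with earlier results of these data known. In R 4.3.3, genes were kept by filterByExpr (minimum count 10, total 15), scaled by TMM and tested with edgeR 4.0.16 (glmQLFit, glmQLFTest), with Benjamini-Hochberg adjustment over all genes tested. A gene was called when its adjusted p was under 0.1 and its log2 fold change 1 or more in size, the thresholds of the study. Log2 fold changes use a prior count of 0.125, and the SE is the absolute log2 fold change over the square root of F. CPM use TMM sizes of all 11 libraries. Total counts of 17040454 to 27127662 make counting error small for most members, and the number of libraries limits precision. The floor, 3 counts, reflects counting error alone. Fits were tested on simulated data. All 33 members are named, and of the other lists at most the 2 called genes with the largest change in each direction. Lengths and coordinates are from GENCODE M21 on GRCm38, and a window counts as shared when its 75 bases occur in transcripts of another gene. Alternatives were DESeq2 1.42.0, RLE size factors, other filters and thresholds, covariates, other library sets and leaving out each library.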

Additional observations from a re-analysis of the deposited data

Results flagged for a closer look

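In groups of 4 to 6 libraries, 132 combinations of gene and group were examined for a library far from the others, and 9 stood apart by Dixon's criterion, where chance gives about 1 in 20 groups. AG3 stood apart for Scd1 in MamBo89, at 749 CPM against 7642 to 8621 in the other 3 libraries, for Ebp, at 21.7 CPM against 42.4 to 44.0, and for Hsd17b7 among the HER2-positive libraries, at 27.9 CPM against 9.04 to 13.7. Untreated replicate 2 of MamBo38, whose code differs from the rest of its line, stood apart for Scd2, at 627 CPM against 401 to 432 in the other MamBo38 libraries, for Acat2, at 20.1 CPM against 13.5 to 14.3, and for Srebf1 among the HER2-negative libraries, at 66.1 CPM against 98.9 to 114. Cyp51 was at 90.5 CPM in 60-day MamBo89 and at 49.9 to 61.2 CPM in the other HER2-positive libraries. Among the HER2-negative libraries, Mvk was at 11.8 CPM in withdrawn MamBo43 TRT against 5.86 to 7.69, and Fads2 was at 30.4 CPM in 60-day MamBo43 TRT against 10.8 to 17.7.

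The change from untreated MamBo43 differed between MamBo43 TRT and MamBo38 for 3 genes, by the contrast of both in the 4-group fit. The difference in log2 fold change was -1.98 for Stard4, -1.67 for Scd2 and -1.40 for Insig1. Both changes share the control library, which drops out of the difference. The 3 genes are 9.09% of the 33, beside 10.2% of all genes called lower in this contrast, and the 3 calls became 0 without withdrawn MamBo43 TRT and 1 without the 60-day library.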

How the results depend on the processing

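Between HER2-negative and HER2-positive libraries, 11 members were called lower and 0 higher. There were 4 lower (12.1%, beside 13.1% of all genes) with tumor of origin as a covariate, and 18 lower (54.5%, beside 31.3%) and 3 higher (9.09%, beside 29%) with no fold minimum. DESeq2 called 1 higher, beside 15.7% of all genes. With the library code as a covariate, 12 were lower and 0 higher, beside 15.7% and 14.7% of all genes. Leaving out each library gave 9 to 11 lower, beside 16.1% to 17.9%, and 0 to 1 higher, beside 14.9% to 18.8%. The 1 was Fdft1 without 60-day MamBo89. Scd1 went from -3.45 to 0.026 with tumor of origin as a covariate. In MamBo43 TRT against untreated MamBo43, 2 members were called higher in the compared libraries alone and 1 without AG3, beside 15% of all genes in each fit. In MamBo38 against untreated MamBo43, 1 was called higher in the compared libraries alone, 1 without AG3 and 1 with no fold minimum. These stand beside 19%, 18.8% and 24.4% of all genes. With no fold minimum 9 were also lower (27.3%, beside 26.7% of all genes). Between MamBo43 TRT and MamBo38, no fold minimum gave 2 higher (6.06%, beside 20.4%). DESeq2, the compared libraries alone and the fit without AG3 each gave 4 lower, beside 10.8%, 11.7% and 11.4% of all genes. Leaving out 1 MamBo38 library gave 2 to 3 lower, beside 9.11% to 9.51%. Fewer were called lower when a MamBo43 TRT library was left out. For untreated MamBo43 against untreated MamBo89, 2 were called lower without a filter, beside 2.88% of all genes. The 4-group fit gave 4 lower, beside 7.86% of all genes. That fit without AG3, which was added after seeing the data, gave 4 lower, beside 10.6%. The causes were not tested. Leaving out a library gave 0 to 14 higher and 0 to 1 lower for trastuzumab within MamBo89, 0 to 1 higher within MamBo38 and 0 to 5 higher for the difference between them. The highest values came without untreated parental MamBo89, where AG3 was the untreated library, and, within MamBo38, without untreated replicate 1, where Tm7sf2 was called. The fits with these highest values keep 1 untreated library of the line, so their counts cannot separate treatment from that library. Over single genes and alternatives, 311 values kept their direction and call, 26 lost the call and 1, that of Scd1, reversed. No paired analysis was possible because the labels carry no replicate numbers. The schedules are treatments, and the library code does not pair single libraries. Each MamBo43 comparison rests on 1 untreated library.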
